A study of Mus musculus with 79 samples.

Results

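The genes described here are 10 that act in the release, uptake and binding of fatty acids: Cd36, Slc27a1, Slc27a4, Fabp3, Fabp4, Fabp5, Lpl, Gpihbp1, Angptl4 and Vldlr. They were picked by gene symbol from the 22335 symbols on the array. The diet and strain differences are no part of this rule, but the genes were chosen with earlier results of these data known. Together they are read by 12 of the 35556 probesets, and each gene is described by its probeset with the highest mean score over all arrays, a choice that matters for Fabp3 and Fabp5 with 2 probesets each. RNA came from the quadriceps of male mice, drawn from the inbred BXD strains bred from C57BL/6J and DBA/2J and from both of these parental strains. All mice were fasted overnight and sacrificed at 29 weeks. One group was kept on a chow diet (CD, Harlan 2018, 42 arrays) and the other received a high fat diet (HFD, Harlan 06414, 37 arrays) from 8 weeks of age. Each array held a pool of about 5 mice of 1 strain on 1 diet. The 42 strains had a CD array each, and 37 of them also had an HFD array. The spread between the mice of a strain was therefore not measured, and all p-values rest on the spread between pools.

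Muscle takes up fatty acids from circulating lipoproteins and from albumin. Lipoprotein lipase, encoded by Lpl, splits triglycerides on the capillary wall, where Gpihbp1 of endothelial cells holds it and Angptl4 inhibits it. Vldlr binds triglyceride-rich lipoproteins. The freed fatty acids cross membranes with the help of Cd36 and of the transport proteins encoded by Slc27a1 and Slc27a4, which also activate them with coenzyme A. Inside the cell they are held by binding proteins. Fabp3 encodes the form of heart and skeletal muscle, Fabp4 that of fat cells and Fabp5 that of epidermis, and the latter pair is also made by macrophages and capillary cells.

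RefSeq promoter windows of build GRCm38.p6, from 250 bases before to 50 bases after a transcript start, were held for 5 of the 10 genes. The windows of 3 are shown because Cd36 and Fabp3 rose together with the diet, whereas Vldlr fell. The windows were searched on both strands for AGGTCA, the half-site of many nuclear receptors, for the GC box GGGCGG and for TATAAA, and capitals mark the matches, with opposite-strand matches in reverse complement. The motifs were present in 16.3%, 35.7% and 13.6% of all 32851 windows in the table, respectively.
Cd36, chr5:17835847-17836146, minus strand: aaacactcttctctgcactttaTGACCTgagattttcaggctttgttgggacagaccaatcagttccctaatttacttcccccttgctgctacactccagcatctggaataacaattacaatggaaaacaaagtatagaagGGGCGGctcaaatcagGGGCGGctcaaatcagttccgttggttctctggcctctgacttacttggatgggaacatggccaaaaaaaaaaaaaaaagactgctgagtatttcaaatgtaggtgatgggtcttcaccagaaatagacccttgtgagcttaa
Fabp3, chr4:130308488-130308787, plus strand: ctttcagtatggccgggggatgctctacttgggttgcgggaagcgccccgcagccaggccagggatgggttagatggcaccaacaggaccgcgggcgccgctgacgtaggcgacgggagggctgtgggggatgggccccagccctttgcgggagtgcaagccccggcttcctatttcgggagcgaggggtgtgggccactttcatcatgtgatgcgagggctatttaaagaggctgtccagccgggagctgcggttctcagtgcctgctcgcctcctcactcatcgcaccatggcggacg
Vldlr, chr19:27216770-27217069, plus strand: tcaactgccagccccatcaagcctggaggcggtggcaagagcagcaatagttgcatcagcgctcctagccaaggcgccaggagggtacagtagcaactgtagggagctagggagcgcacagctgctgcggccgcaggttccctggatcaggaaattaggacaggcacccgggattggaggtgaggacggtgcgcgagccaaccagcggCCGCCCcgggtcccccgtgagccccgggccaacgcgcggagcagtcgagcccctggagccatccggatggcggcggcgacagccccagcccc
The Cd36 window held 1 AGGTCA and 2 GC boxes. The Vldlr window held 1 GC box, and the second Vldlr window, which is not shown, held none of the 3 motifs. The Fabp3 window held none of these letters, and none of the 8 windows of the 5 genes held TATAAA. The 3 windows of Slc27a1, which also rose, held 0, 1 and 3 GC boxes, the window of Slc27a4 held 3, and none of these 4 held AGGTCA. Fabp4, Fabp5, Lpl, Gpihbp1 and Angptl4 are named only.

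The deposited values are scores of a log type whose base was not given. Every array was scaled to a mean of 8.0 and an SD of 2.0, so differences are in score units and folds are nominal, as if 1 unit were a doubling. All 10 markers of skeletal muscle, such as Acta1 and Ckm, lay at or above the 99.0th percentile on every array. The titles gave 2 batches. Batch 1 held 18 arrays on CD and 17 on HFD. Batch 2 held 24 and 20. The pair of BXD63 arrays stood apart. Only 34.2% of all probesets that changed with the diet moved in the called direction in that strain, against a median of 78.2% over 37 strains. Results were therefore also computed without it.

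The diet changed most of the uptake genes, and mostly upward. Higher scores on HFD were called for Fabp3, Angptl4, Fabp4, Fabp5, Cd36 and Slc27a1, and a lower score for Vldlr. Lpl, Gpihbp1 and Slc27a4 did not pass the test. Thus 6 of 10 genes rose and 1 fell, whereas 18.9% of all probesets rose and 19.3% fell (limma, diet and batch as terms, Benjamini-Hochberg adjusted p below 0.05 over all probesets). The median HFD minus CD difference of the 10 genes was 0.246 score units, against -0.001 over all probesets. Since the genes were chosen with earlier results of these data known, these contrasts are given as a description.

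**Figure D1:**
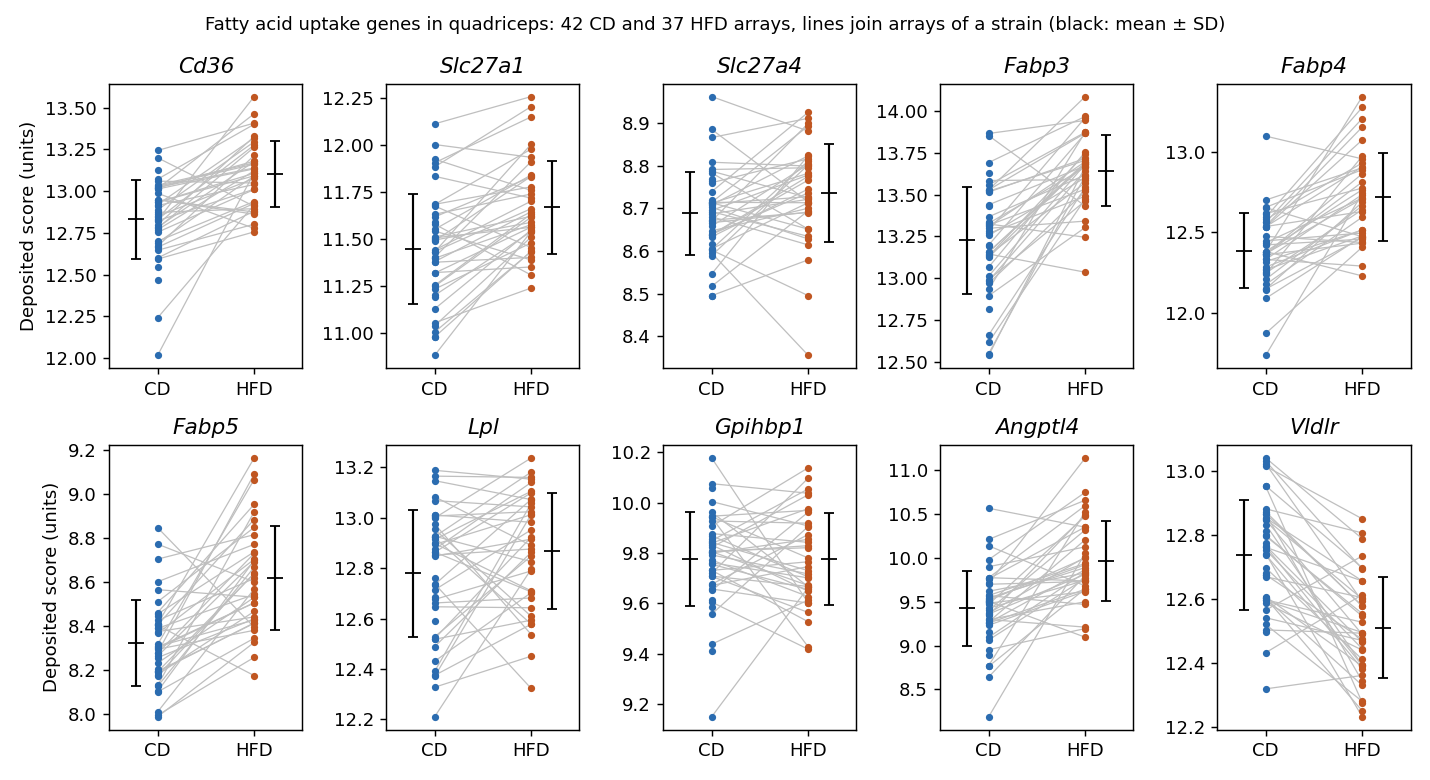
Deposited score (vertical axes, score units) of the 10 genes on 42 CD and 37 HFD arrays. Points are arrays, grey lines join the 2 arrays of a strain, and black bars are mean ± SD. Scores of Fabp3, Angptl4, Fabp4, Fabp5, Cd36 and Slc27a1 shifted upward on HFD and that of Vldlr downward, and the diets overlapped in every gene.

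Among the membrane transporters, Cd36 and Slc27a1 rose and Slc27a4 did not pass the test. The Cd36 score ran from 12.02 through a median of 12.86 to 13.24 on CD and from 12.76 through 13.11 to 13.57 on HFD. The diets overlapped, but Cd36 was higher on HFD in 32 of 37 strains. The difference was 0.271 ± 0.049 (SE; 95% interval 0.173 to 0.368; limma adjusted p = 5.86e-06). Slc27a1, the transport protein of muscle and fat, ran from 10.88 through 11.44 to 12.11 on CD and from 11.24 through 11.62 to 12.26 on HFD. The groups overlapped over most of their range, and 31 of 37 strains were higher on HFD, with a difference of 0.221 ± 0.061 (SE; limma adjusted p = 0.00238). With the arrays of 1 batch alone, Slc27a1 was no longer called, at 0.246 in batch 1 (limma adjusted p = 0.069) and 0.201 in batch 2 (limma adjusted p = 0.0617). Slc27a4, which is widely expressed, spanned 8.49 to 8.96 on CD and 8.36 to 8.93 on HFD, with medians of 8.69 and 8.74. Its difference was 0.049 (95% interval 0.000 to 0.098; limma adjusted p = 0.111). It was called only when the arrays were centred on their medians, at 0.066 (limma adjusted p = 0.0209).

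All 3 binding proteins rose. Fabp3 ran from 12.54 through a median of 13.26 to 13.87 on CD and from 13.04 through 13.67 to 14.09 on HFD. The diets overlapped, and 34 of 37 strains were higher on HFD. The difference was 0.419 ± 0.062 (SE; 95% interval 0.297 to 0.542; limma adjusted p = 4.92e-08), with 0.485 in batch 1 alone and 0.366 in batch 2 alone. Fabp4 ran from 11.74 through 12.37 to 13.10 on CD and from 12.23 through 12.71 to 13.34 on HFD, a difference of 0.333 ± 0.056 (SE; limma adjusted p = 1.4e-06). It was higher in 32 of 37 strains. Fabp5 ran from 7.99 through 8.30 to 8.85 on CD and from 8.17 through 8.60 to 9.16 on HFD, a difference of 0.297 ± 0.048 (SE; limma adjusted p = 5.77e-07). It was higher in 33 of 37 strains.

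Fabp3 and Fabp5 were each read by 2 probesets. The second Fabp3 probeset followed the first with r = 0.997 over the arrays and gave a diet difference of 0.434, and the second Fabp5 probeset followed with r = 0.965 and gave 0.397. Both genes have a probeset that is uncertain in place. Fabp3 lies on chromosome 4. Of the neighbouring probesets with a known chromosome, 6 of 7 were on it for the Fabp3 probeset described here, but for the second one 0 of 5 were on it and 5 were on chromosome 10. For Fabp5 the doubt touches the probeset described here. Fabp5 lies on chromosome 3, but of the 8 neighbouring probesets with a known chromosome 0 were on it and 8 were on chromosome 9. Of the neighbours of the second Fabp5 probeset, 6 of 8 were on chromosome 3. In these probesets, signal from a copy of the gene and from the gene itself cannot be told apart.

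Markers of other cells moved with the diet as well, beside the 18.9% of all probesets that rose and the 19.3% that fell. Of 12 adipocyte markers, 7 rose and 1 fell, with a mean marker score of 8.62 to 10.37 on CD and 8.67 to 10.22 on HFD and medians of 9.15 and 9.52. Lep, which encodes the fat cell hormone leptin, rose by 1.58 score units, whereas Cfd, which encodes adipsin, fell by 0.608. Of 10 macrophage markers 7 rose and 0 fell, with mean scores of 8.37 to 9.16 on CD and 8.53 to 9.40 on HFD. Of 10 endothelial markers 5 rose and 0 fell, with mean scores of 9.33 to 10 on CD and 9.65 to 10.15 on HFD. Their part in the rise of Fabp4, Fabp5, Cd36 and Angptl4 was not tested. In tissue RNA, more cells of a type and more RNA per cell cannot be told apart. Of 10 slow fibre markers 2 rose, 1 fell and 7 were not called, shares near those over all probesets, with mean scores of 8.71 to 10.74 on CD and 8.54 to 10.65 on HFD.

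Of the lipase and its partners, Angptl4 rose, and Lpl and Gpihbp1 did not pass the test. Lpl itself ran from 12.21 through a median of 12.86 to 13.19 on CD and from 12.32 through 12.89 to 13.24 on HFD, almost the same range. Its difference was 0.089 (95% interval -0.018 to 0.197; limma adjusted p = 0.191), and 23 of 37 strains were higher on HFD. Gpihbp1 ran from 9.15 through 9.80 to 10.18 on CD and from 9.42 through 9.75 to 10.14 on HFD. Its difference was 0.000 with a 95% interval of -0.083 to 0.083. Angptl4, the inhibitor, had the largest estimated difference of the 10 genes. It ran from 8.19 through 9.48 to 10.56 on CD and from 9.10 through 9.86 to 11.14 on HFD, with much overlap but a higher score on HFD in 31 of 37 strains. The difference was 0.537 ± 0.098 (SE; 95% interval 0.342 to 0.733; limma adjusted p = 6.51e-06).

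The lipoprotein receptor Vldlr was the only one of the 10 genes that fell. It ran from 12.32 through a median of 12.76 to 13.04 on CD and from 12.23 through 12.49 to 12.85 on HFD. The diets overlapped, and 34 of 37 strains were lower on HFD. The difference was -0.226 ± 0.037 (SE; 95% interval -0.301 to -0.152; limma adjusted p = 8.23e-07), with -0.246 in batch 1 alone and -0.211 in batch 2 alone.

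**Figure D2:**
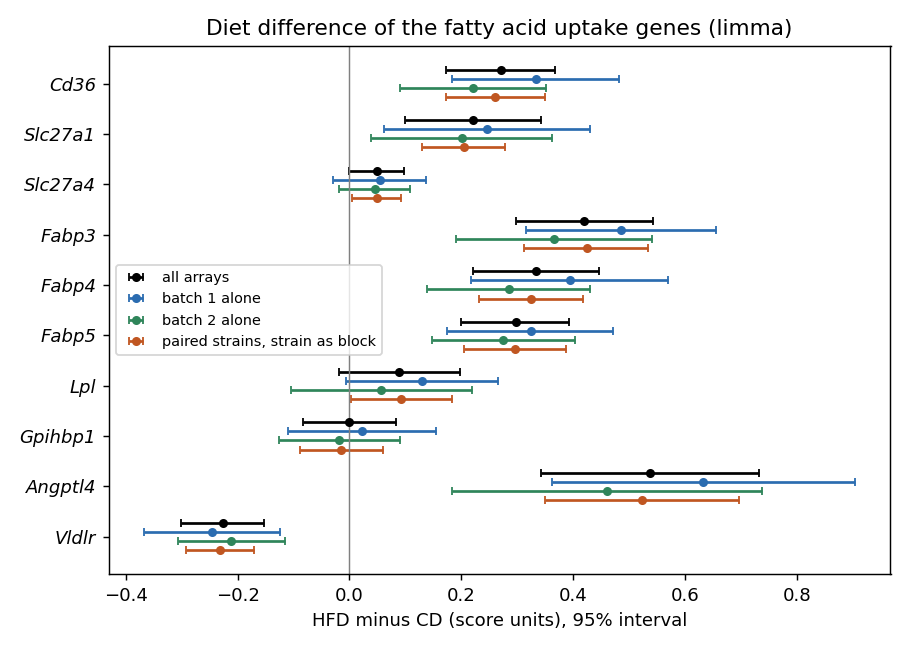
HFD minus CD difference (horizontal axis, score units) of the 10 genes with 95% intervals, from limma over all arrays, over batch 1 or batch 2 alone, and over the paired strains with strain as a block. The estimates of a gene lay close to each other in the 4 fits, and the intervals of Fabp3, Angptl4, Fabp4, Fabp5, Cd36 and Slc27a1 lay above 0 and that of Vldlr below 0 in all of them (unadjusted intervals).

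To ask whether the fat-type and muscle-type binding proteins responded by different amounts, the Fabp3 score was subtracted from every other score of the same array. The rise of Fabp4 was not distinguishable from that of Fabp3, with a relative difference of -0.086 (95% interval -0.237 to 0.064; limma adjusted p = 0.263). Per strain, the rise of Fabp4 was above that of Fabp3 in 15 of 37 strains. The rise of Fabp5 relative to Fabp3 was -0.123 (95% interval -0.261 to 0.015; limma adjusted p = 0.0834), and that of Angptl4 was 0.118 (95% interval -0.074 to 0.310; limma adjusted p = 0.229). The intervals leave room for differences in either direction. Fabp5 was read here by its probeset of uncertain place. The second Fabp5 probeset, with most neighbours on chromosome 3, rose by 0.397, beside 0.419 for Fabp3. The other 6 of 9 genes were lower relative to Fabp3, from -0.149 for Cd36 (limma adjusted p = 0.00264) and -0.198 for Slc27a1 (limma adjusted p = 0.00642) to -0.646 for Vldlr (limma adjusted p = 2.22e-10). Lpl lay at -0.330 and was below Fabp3 in 35 of 37 strains. Since Fabp3 itself rose, 96.0% of all probesets were called in this comparison, so the count of 6 says little by itself. Cd36 was not called in batch 1 alone (-0.153, limma adjusted p = 0.0534) or batch 2 alone (-0.146, limma adjusted p = 0.0621), and Slc27a1 was not called in batch 2 alone (-0.165, limma adjusted p = 0.117).

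The strains varied in how many genes followed this pattern, described here without a test because the directions were set by the same arrays. With 1 array per strain and diet, the response of a strain and the spread between pools cannot be told apart. In 24 of 37 strains all 7 called genes moved in the called direction. In 5 strains 6 of the 7 did so, in 4 strains 5, in BXD73 4 and in BXD49 3. BXD56 and BXD98 followed with only 1 gene each. The Fabp3 score of BXD98 fell by 0.42 and its Fabp5 score by 0.45, the most negative values of any strain for both genes, as were its Cd36 value of -0.29 and its Fabp4 value of -0.18. On CD, BXD98 ranked 41 of 42 from the lowest for both Cd36 and Fabp3, at 13.20 and 13.85, and on HFD 8 and 5 of 37. BXD98 was not unusual over the array, with 78.2% of all called probesets in the called direction, and BXD56 had 62.8%. C57BL/6J was the opposite case. Its CD array was the lowest of 42 for Cd36, Fabp3, Fabp4, Gpihbp1 and Angptl4. Its HFD minus CD differences were the highest of 37 in those same 5 genes, at 1.10, 1.13, 1.0, 0.51 and 1.86. Its HFD array ranked 20, 19, 22, 11 and 25 of 37 from the lowest in these genes. The CD score is part of each difference, so the CD ranks and the differences of BXD98 and C57BL/6J are not independent. Without the parental strains the diet differences were 0.252 for Cd36, 0.405 for Fabp3, 0.311 for Fabp4 and 0.501 for Angptl4, and the same number of 7 genes was called. BXD63 is among the 24 strains that moved with all 7 genes, although it stood apart over the array. Whether its CD and HFD arrays carry each other's label was not tested, and such an exchange would turn the sign of each of its differences.

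**Figure D3:**
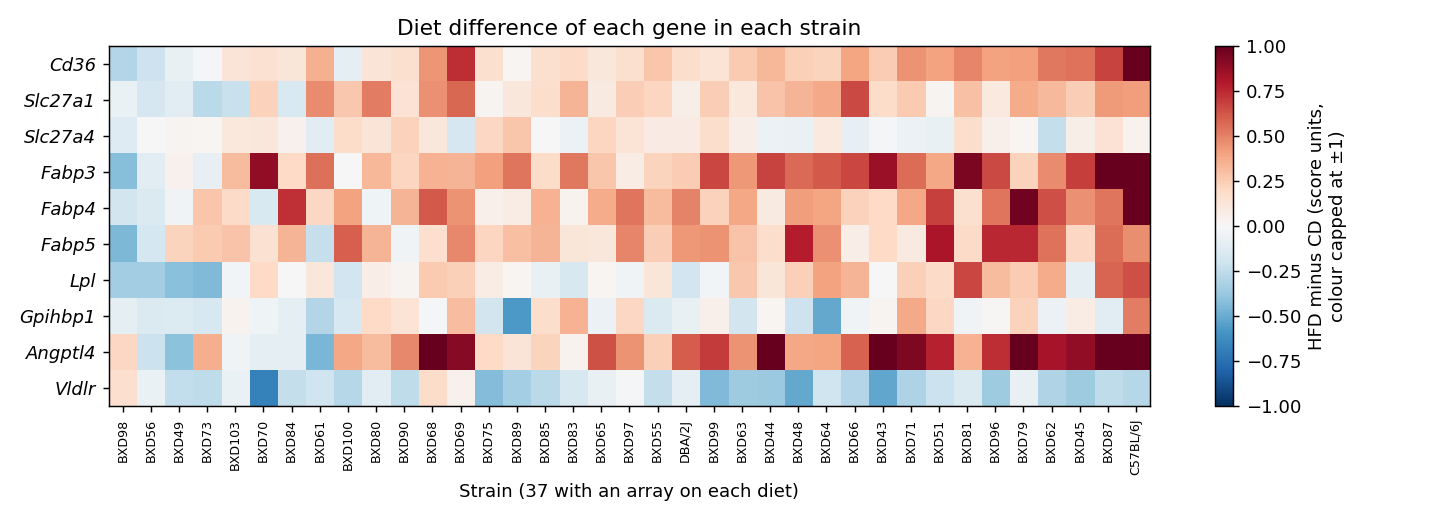
HFD minus CD difference (colour, score units, capped at 1 in either direction) of the 10 genes (rows) in each of 37 strains (columns, ordered by how many of the 7 called genes moved in the called direction). BXD98 and BXD56 at the left moved with 1 gene each, and C57BL/6J at the right had the highest differences for Cd36, Fabp3, Fabp4, Gpihbp1 and Angptl4.

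Across the arrays of each diet, the inhibitor Angptl4 had the widest range and the transporter Slc27a4 the narrowest. The nominal range of Angptl4 was 5.18-fold on CD and 4.12-fold on HFD, and that of Slc27a4 was 1.38-fold and 1.48-fold. On CD, Angptl4 ran between the single arrays of C57BL/6J (8.19) and BXD56 (10.56). Strain differences of Angptl4 over both diets were not called (limma F test, adjusted p = 0.108). Its SD left within strains, 0.381, was the highest of the 10 genes. Ranges of the other 8 genes lay between 1.65-fold and 2.56-fold on CD and between 1.53-fold and 2.16-fold on HFD. The SD over strains had a median of 0.235 score units on CD and 0.222 on HFD for the 10 genes, against 0.146 and 0.158 for all genes on the array.

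Strain differences that held over both diets were called for 4 of 10 genes, against 13.6% of all probesets (limma F test over 37 strains with diet and batch as terms). Slc27a1 stood first (F = 4.965, limma adjusted p = 7.17e-05). Its mean over the diets ran from 11.15 in BXD43 and 11.21 in BXD68 to 12.05 in BXD62 and 12.19 in BXD90, and BXD90 was the highest strain on each diet. Vldlr (F = 2.445, limma adjusted p = 0.0335), Fabp4 (F = 2.366, limma adjusted p = 0.0404) and Lpl (F = 2.323, limma adjusted p = 0.045) were called with less margin. Vldlr ran from 12.34 in BXD69 to 12.93 in BXD83 and Lpl from 12.39 in BXD55 to 13.17 in BXD97. Fabp4 ran from 12.14 in BXD87 to 13.03 in BXD56. The CD array of BXD56 had the highest Fabp4 score on CD and stood apart in its adipocyte level, and the F test was not run without this strain. Without BXD63 the count dropped to 2, since Fabp4 (limma adjusted p = 0.0527) and Lpl (limma adjusted p = 0.0557) were no longer called, and Vldlr lost its call after another quantile normalization (limma adjusted p = 0.0502). In no gene did a pair of neighbours in the order of strains differ by more than the SD left within strains, so neighbouring ranks are not resolved.

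The same gene led when strain values were compared between diets. For Slc27a1 the CD and HFD values of 37 strains were correlated (r = 0.676, permutation p = 1e-05, the smallest possible, adjusted p = 0.000424; Spearman's rho = 0.656, permutation p = 2e-05, adjusted p = 0.000826). Leaving out the 2 strains most distant from the median on CD gave r = 0.630. Within batches r was 0.839 for 12 strains and 0.706 for 17 strains, and it was 0.411 in the 8 strains whose arrays lay in different batches. Slc27a1 was the only one of the 10 genes called, where 10.6% of all probesets were. The next were Vldlr (r = 0.442, permutation adjusted p = 0.0563) and Lpl (r = 0.400, permutation adjusted p = 0.0998). Fabp3 (r = 0.311) and Cd36 (r = 0.297), which responded clearly to the diet, were not called.

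**Figure D4:**
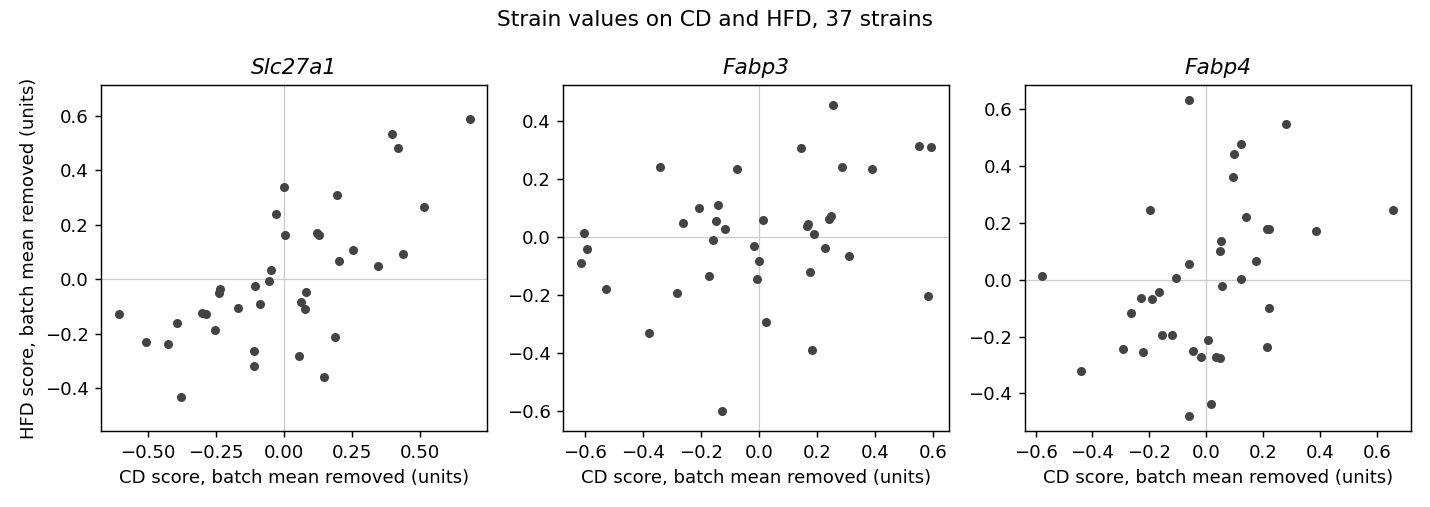
Score of Slc27a1, Fabp3 and Fabp4 on HFD (vertical axes) against that on CD (horizontal axes) in 37 strains, both in score units with the batch mean removed within each diet. Each point is a strain, and the points of Slc27a1 (r = 0.676) lie closer to a line than those of Fabp4 (r = 0.387) and Fabp3 (r = 0.311).

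No difference between the parental strains was called. The estimates of C57BL/6J minus DBA/2J over both diets were -0.457 ± 0.186 (SE) for Cd36 and -0.348 ± 0.158 (SE) for Gpihbp1. They came mainly from the CD arrays. Cd36 was 12.016 in C57BL/6J and 12.934 in DBA/2J on CD, but 13.111 and 13.107 on HFD. Gpihbp1 was 9.15 and 9.792 on CD, but 9.663 and 9.717 on HFD. Neither passed the adjusted test (limma adjusted p = 0.389 and 0.511). Of the 10 genes 0 were called, against 1.26% of all probesets, and 2 had an unadjusted p below 0.05. With 2 arrays per parent, the spread was borrowed from all paired strains, and a fit of the parental arrays alone also called 0.

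Within a diet, the scores of the binding proteins were set against marker levels over the strains. Fabp4 was called with the level of the adipocyte markers on each diet. Fabp3 was called with the slow fibre markers on CD but not over all arrays on HFD, and whether the diets differed was not tested. Cd36 and Lpl were called with Fabp3 on each diet. Fabp4 also went with Cd36 (r = 0.593 on CD and 0.566 on HFD) and with Lpl (0.395 and 0.560), values that are given as a description. Marker levels are means of standardized marker scores with batch means removed, and each r was tested by permutation and adjusted over all probesets. The slow fibre and Fabp3 relations were added after the data had been seen.

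On CD, a single array, that of BXD56, lay apart at an adipocyte level of 2.655 and held the highest Fabp4 and Angptl4 scores of the 42 CD arrays, so r is given for the other 41. Fabp4 followed the adipocyte level there (r = 0.671, permutation adjusted p = 0.00988; rho = 0.774) and was the 1 of 10 genes called, against 0.174% of all probesets. On HFD the r of Fabp4 was 0.703 (permutation adjusted p = 0.00263; rho = 0.693), and 0.651 without the 2 farthest arrays. Fabp5 (r = 0.586, permutation adjusted p = 0.0179; rho = 0.608) and Angptl4 (r = 0.573, permutation adjusted p = 0.0313; rho = 0.527, permutation adjusted p = 0.0919) were called on HFD as well, 3 of 10 genes against 1.03% of probesets. Without the 2 farthest arrays, those of BXD79 and BXD49, Fabp5 (r = 0.526, permutation adjusted p = 0.106) and Angptl4 (r = 0.427, permutation adjusted p = 0.39) were no longer called. The r of Angptl4 was 0.233 in batch 1 alone and 0.794 in batch 2 alone. In batch 1 and batch 2 alone, Fabp4 had r of 0.623 and 0.773 on HFD. On CD it had 0.619 in batch 1, and 0.911 in batch 2, which includes the BXD56 array. Fabp3 showed no such relation that passed the test, with r = 0.249 on 41 CD arrays (permutation adjusted p = 0.606) and -0.015 on HFD (permutation adjusted p = 0.993). Whether Fabp4 and Fabp3 differed in r was not tested.

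On CD, Fabp3 (r = 0.759), Lpl (r = 0.792) and Cd36 (r = 0.671) followed the slow fibre level, each with a permutation adjusted p of 0.00309 and with rho of 0.773, 0.809 and 0.763. These 3 of 10 genes compare with 1.11% of all probesets, and leaving out the 2 farthest arrays gave r of 0.726, 0.769 and 0.631. Within batch 1 and batch 2, r was 0.703 and 0.805 for Fabp3, 0.791 and 0.794 for Lpl and 0.743 and 0.673 for Cd36. On HFD 0 of 10 genes were called, where 0.0816% of probesets were. There Fabp3 had r = 0.605 (permutation adjusted p = 0.0711), Cd36 0.368 and Lpl 0.350, and Fabp3 passed at 0.626 without BXD63 (permutation adjusted p = 0.049). Whether the relation differed between diets was not tested. Fabp4 had r = 0.187 with the slow fibre level on CD and -0.182 on HFD, and neither was called.

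**Figure D5:**
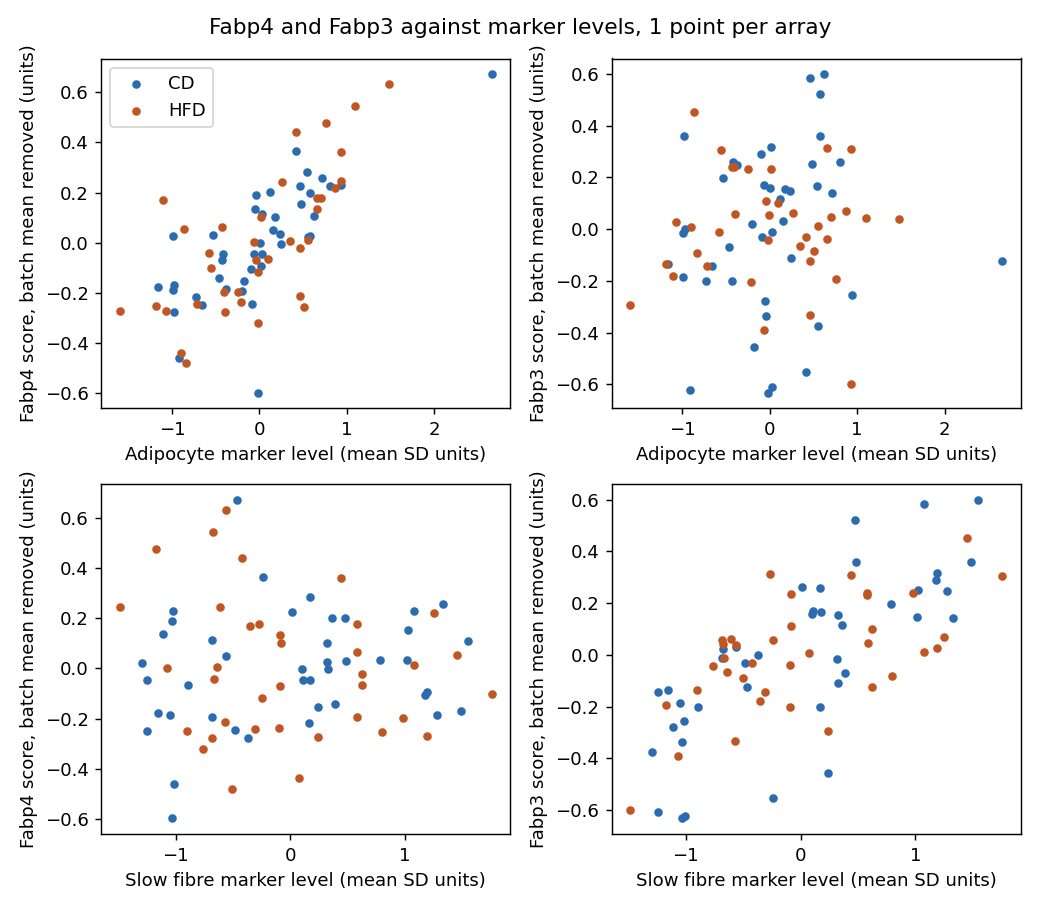
Score of Fabp4 (left) and Fabp3 (right), with batch means removed, against the adipocyte (top) and slow fibre (bottom) marker level in mean SD units. Each point is an array, blue for CD and orange for HFD. Fabp4 rises with the adipocyte level on both diets and Fabp3 with the slow fibre level on CD, where these relations were called, and the CD array of BXD56 lies alone at an adipocyte level of 2.655.

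Cd36 and Lpl also followed Fabp3 itself. On CD, r was 0.808 for Cd36 (rho = 0.768) and 0.778 for Lpl (rho = 0.779), and Slc27a1 was called at r = 0.503 (permutation adjusted p = 0.0491) but not by rank (rho = 0.471, permutation adjusted p = 0.106). These 3 of 9 genes compare with 1.28% of probesets. On HFD, Lpl (r = 0.754) and Cd36 (r = 0.683) were called with a permutation adjusted p of 0.00404 each, 2 of 9 genes against 0.788% of probesets. Without the 2 farthest arrays the values were 0.765 and 0.731 on CD and 0.608 and 0.737 on HFD, for Cd36 and Lpl in that order. Within batch 1 and batch 2, Cd36 had r of 0.784 and 0.852 on CD and 0.394 and 0.766 on HFD, and Lpl had 0.815 and 0.754 on CD and 0.568 and 0.798 on HFD. Lpl thus varied with Fabp3 over strains on each diet although its own diet difference did not pass the test. Fabp4 was not called with Fabp3, at r = 0.279 on CD and 0.098 on HFD.

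The capillary gene Gpihbp1 followed the endothelial markers. On HFD r was 0.704 (permutation adjusted p = 0.00356; rho = 0.666), and 0.637 without the 2 farthest arrays. Cd36 was called as well at r = 0.552 (permutation adjusted p = 0.026), though not by rank (rho = 0.509, permutation adjusted p = 0.0576), so that 2 of 10 genes were called against 3.49% of probesets. Within batch 1 and batch 2, r was 0.457 and 0.813 for Gpihbp1 and 0.284 and 0.653 for Cd36. On CD Gpihbp1 was the 1 of 10 called (r = 0.567, permutation adjusted p = 0.0109), against 2.63% of probesets, with 0.742 in batch 1 and 0.344 in batch 2. It lost its call by rank (rho = 0.409, permutation adjusted p = 0.16) and without the 2 farthest arrays (r = 0.400). Those arrays were the CD arrays of C57BL/6J and BXD83, at levels of -1.986 and -1.900.

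For each gene the most similar profiles on the array were sought by a likeness, the lower of its r over the CD arrays and over the HFD arrays, which is given as a description. Fabp3 was most like Hadha (0.886) and Hadhb (0.879), the subunits of the mitochondrial trifunctional protein. Lpl was most like the acyl-CoA synthetase gene Acsl1 (0.836) and Cd36 (0.786), and Cd36 like Nceh1 (0.814) and Lpl. Fabp4 was most like Car5b (0.745) and the lipase gene Lipe (0.744), itself among the adipocyte markers. Angptl4 also had Lipe first (0.742), followed by Cpt1a (0.735). Gpihbp1 was most like Ablim3 (0.732) and the water channel gene Aqp1 (0.682), and Fabp5 like Fads3 (0.683) and Hp (0.668). The remaining genes had weaker matches. Vldlr was most like Sorbs2 (0.617) and Mafg (0.579), Slc27a1 like Rfxank (0.575) and Prosc (0.560), and Slc27a4 like C19orf29 (0.455) and Mfsd5 (0.446).

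The other genes of the pathway were read against the same background, in which 18.9% of all probesets rose and 19.3% fell. Of 14 uptake partners 8 rose, 1 fell and 5 were not called. The caveola genes Cav1, Cav2 and Cavin1 rose by 0.294, 0.279 and 0.146, and Acsl5, Nrp1, Acsl3, Acsl1 and Vegfb by 0.284, 0.269, 0.169, 0.163 and 0.127. Zdhhc4, whose product attaches palmitate to Cd36, fell by 0.084. Of 8 other binding proteins 3 rose and 3 fell, among them Dbi, which encodes the acyl-CoA binding protein, at 0.347. Of 4 other transport proteins 0 rose and 2 fell, Slc27a5 by 0.118 and Slc27a6 by 0.075. With strain as a block, Slc27a6 was no longer called (limma adjusted p = 0.0884), which left 1 of 4. Of 15 lipase partners and lipoprotein receptors 3 rose, 3 fell and 9 were not called, shares near those over all probesets. With the strain block Lrp8, which had fallen by 0.078, was no longer called (limma adjusted p = 0.0508). Pltp rose by 0.277, and Apoa5, which aids lipolysis, fell by 0.177. Of 6 nuclear receptors and coactivators, Pparg rose by 0.260 and Ppargc1b by 0.139, whereas Ppara was at 0.031 and Ppard at 0.052 and were not called. The median difference was 0.137 for the uptake partners, -0.027 for the binding proteins, -0.069 for the transport proteins, -0.036 for the lipase partners and 0.052 for the nuclear receptors.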

How the data were processed

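Quadriceps RNA, pooled from about 5 mice of a strain on a diet, was hybridised by the authors to Affymetrix Mouse Gene 1.0 ST arrays, and the submitters' processing notes name Affymetrix Expression Console. Each deposited value is a score of a probeset, with a mean of 8.0 and an SD of 2.0 on every array. The log base, summarization and genome build were not given in the sources used here. Precision depends on the number of arrays, since these carry no read depth. The chow column BXD92 was matched to sample BXD92a, and 0 value columns were left out.

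Diet, strain and parental differences were fitted with limma 3.58.1 (R 4.3.3) over all probesets, with batch as given in the titles as a term, and adjusted by Benjamini-Hochberg (threshold 0.05). Log2 values had been assumed when the tests were chosen, and the scores were used as given. Correlations used 100000 two-sided permutations (numpy 2.4.6, numba 0.67.0), adjusted over all probesets, and pooled values were not used where a mixture of 2 components lowered the BIC by at least 10 with Ashman's D over 2. The fits and permutation tests were tested on simulated data. Alternatives were the batch, strain block, strains, normalization, filter and probeset, and the methods' t-test. Named genes were the 10 genes, the 2 genes most like each, called genes of the pathway and marker lists, and the strains with extreme values. BXD98, BXD56 and BXD63 were picked with their values in view. The genes and lists were chosen with earlier results of these data known.

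Strain pairs CD and HFD arrays of the same inbred genotype. Deviations of the 2 arrays of a strain from their group means had a median r of 0.214 (range -0.136 to 0.395, 33 of 37 over 0.1), against -0.006 for other pairs, and in 19 of 37 strains the CD array was closest to the HFD array of its own strain.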

Additional observations from a re-analysis of the deposited data

How the results depend on the processing

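The count of 7 genes changed by diet was kept within 1.5 times under every setting tried: it was 6 in each batch alone, 8 with median centring and 7 otherwise. With strain as a replicate block over the 37 paired strains it was 7 again, and the count relative to Fabp3 was 6 with it as without it. The block changed no call of the 10 genes in these comparisons. Among the genes of the lists, it ended the calls of Slc27a6 and Lrp8, and the calls it added include Acsl4 (limma adjusted p = 0.0129) and Lyz2 (limma adjusted p = 0.0173). The diet differences of 9 genes kept their sign under these settings. That of Gpihbp1, 0.000 over all arrays, took both signs, with 0.022 in batch 1 and -0.018 in batch 2, and was called in none. Leaving out BXD63 lowered the count of genes with strain differences from 4 to 2, and the cause was not tested.

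The correlations were less stable. The strains with both arrays in batch 1, and those with arrays in different batches (added after the data were seen), gave 0 called genes between diets. With batch 1 alone, 0 genes were called with the adipocyte and endothelial levels on either diet, with the slow fibre level on CD and with Fabp3 on either diet, where fewer arrays were tested. Batch 2 alone left 0 with the endothelial level on CD and 1 on HFD. Without the 2 farthest arrays, the counts were 1 for the adipocyte and 1 for the endothelial level on HFD and 0 for the endothelial level on CD. Without BXD63, 1 gene was called with the slow fibre level on HFD.

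Among the genes described above, the sign turned in 9 cases, none of them called. Between diets these were Vldlr with both arrays in batch 2 (-0.033) and Cd36 (-0.268) and Gpihbp1 (-0.701) with arrays in different batches. Within batch 2, Fabp3 turned to -0.020 with the adipocyte level on CD, and Fabp4 to -0.141 on CD and 0.007 on HFD with the slow fibre level. Within batch 1 on HFD, Fabp3 turned to 0.083 with the adipocyte level, and Fabp4 to -0.016 and Slc27a1 to -0.025 with Fabp3. The scores do not state the noise of dim probesets, and the number of arrays limits all these values.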
